A study of Mus musculus with 2 samples.

Results

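The 9 genes described here are the 5 beta-like globin genes of the mouse (Hbb-bs, Hbb-bt, Hbb-bh1, Hbb-bh2 and Hbb-y) and 4 genes known for their part in globin switching (Bcl11a, Zbtb7a, Sox6 and Lin28b). They were chosen by name, without use of their measured levels, though earlier results of these data were known. All 9 were found among the 43346 rows with an Ensembl identifier in the deposited gene tables. The study holds 2 poly(A) RNA-seq libraries from G1E-ER4, an immortalized mouse erythroid line derived from cells that lack Gata1 and given back GATA-1 as a fusion with an oestrogen receptor domain, which hormone activates. Both libraries are labelled as biological replicates of cells kept for 24 h in 17beta-estradiol at 10 nM, and the line is labelled male and postnatal (age 0 day), without a strain. Both come from the same line, and no untreated library was analysed here, so every value below is a level in induced cells and none is a response to oestradiol. Replicate 1 holds 20412826 expected counts over all genes and replicate 2 holds 18564086.

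Haemoglobin is built from alpha-like and beta-like chains, and the beta-like genes lie in 1 cluster that red cell precursors read in a developmental sequence. In the mouse, Hbb-y and Hbb-bh1 serve the primitive red cells of the embryo, and the adult genes take over in the definitive red cells of the fetal liver and bone marrow. BCL11A and ZBTB7A (also called LRF) are DNA-binding repressors that hold embryonic or fetal beta-like genes silent in adult erythroid cells, SOX6 acts beside BCL11A, and LIN28B is an RNA-binding protein of fetal cells that blocks maturation of let-7 microRNAs and lowers BCL11A protein.

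The members spanned a very wide range of levels, and their order was the same in both libraries. Levels are given in TPM, the share of all transcripts that belongs to a gene, which is corrected for length and so allows genes to be compared. From high to low the order was Hbb-bs, Hbb-bt, Bcl11a, Hbb-bh1, Zbtb7a, Lin28b, Sox6, Hbb-y and Hbb-bh2. In each of the 8 neighbouring pairs the 2 values of the higher gene lay above both values of the lower one. These are point values without counting error, which is wide for Hbb-y with 11 and 15 counts. Whether Lin28b, Sox6 and Hbb-y differ beyond that error was not tested. With 2 libraries an exact sign-flip test cannot give a p below 0.5, so no p is given. At a threshold of 1 TPM in both libraries, 8 of the 9 members were detected, beside 41.2% of 21461 nuclear protein-coding genes, and Hbb-bh2 was the exception. The TPM of Hbb-bs, Bcl11a and Sox6 also depend on the division among their transcripts, and for Sox6 detection does too, as given below.

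**Figure D1:**
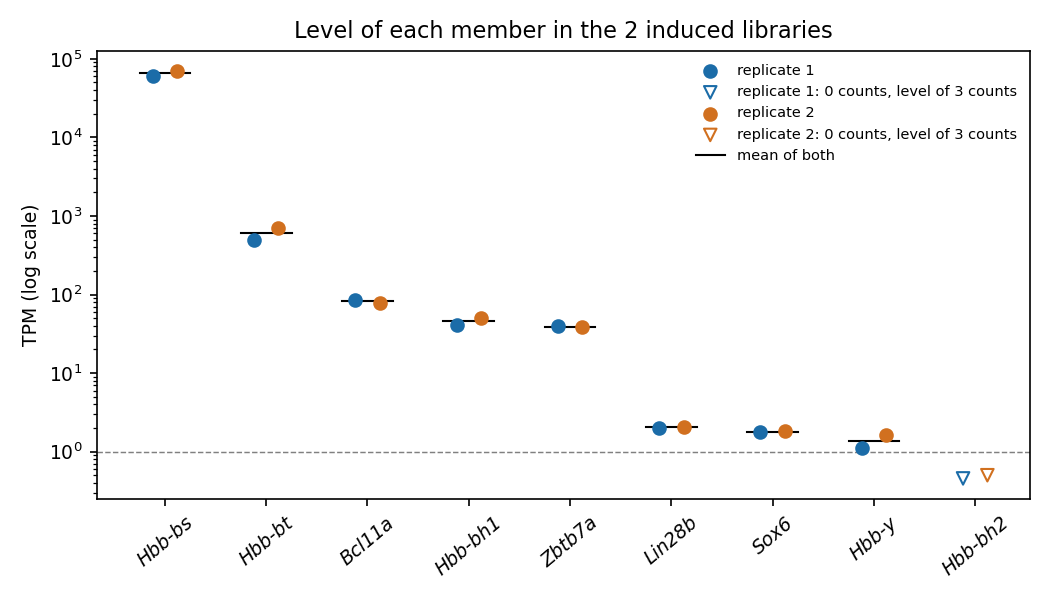
Level of each of the 9 genes (TPM, log axis) in replicate 1 and replicate 2, with a bar at the mean of both; for Hbb-bh2, which had 0 counts, open triangles mark the level that 3 counts would give, and the dashed line is 1 TPM. Hbb-bs stands near 65450 TPM, far above Hbb-bt, and Lin28b, Sox6 and Hbb-y stand close together just above 1 TPM.

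The 5 beta-like genes lie on the minus strand of chromosome 7 (GRCm38). In the direction of transcription the first is Hbb-y at chr7:103851749-103853216, then Hbb-bh1 at chr7:103841637-103843164, Hbb-bh2 at chr7:103839124-103840520, Hbb-bs at chr7:103826534-103828096 and Hbb-bt at chr7:103812524-103813996. Their coding sequences are of 1 length, 441 bases without the stop codon. Hbb-bs and Hbb-bt differ at 1 of those bases, an identity of 99.8%. Hbb-bs shares 73.9% of bases with Hbb-bh1, 74.4% with Hbb-y and 70.3% with Hbb-bh2, and Hbb-bh1 and Hbb-y share 76.4%. Coding bases 358 to 417, in the last exon, are shown because they hold the single base that separates the 2 adult genes, at the end of the run; bases that differ from Hbb-bs are in capitals (GENCODE M21 transcripts, GRCm38).
Hbb-bs: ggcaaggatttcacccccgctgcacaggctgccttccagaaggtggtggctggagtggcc
Hbb-bt: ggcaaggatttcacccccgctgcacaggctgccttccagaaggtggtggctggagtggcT
Hbb-bh1: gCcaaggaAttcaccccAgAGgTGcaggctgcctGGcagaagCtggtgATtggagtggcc
Hbb-y: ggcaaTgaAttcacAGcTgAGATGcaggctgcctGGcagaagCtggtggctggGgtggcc
Hbb-bh2: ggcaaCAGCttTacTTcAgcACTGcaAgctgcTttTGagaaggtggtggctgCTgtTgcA
Over these 60 bases Hbb-bt differs from Hbb-bs at 1, Hbb-bh1 at 12, Hbb-y at 14 and Hbb-bh2 at 20.

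This likeness bears on how reads can be assigned. The reads are 36 bases long, as the difference between listed and effective lengths shows. Of the 36-base windows of Hbb-bs, 45.9% occur in no other annotated gene, and of those of Hbb-bt 40.9%. The 395 windows that each adult gene shares are shared with the other adult gene alone. For Hbb-bh1, Hbb-bh2, Hbb-y and Sox6 the share found in no other gene is 100%, and for Bcl11a, Zbtb7a and Lin28b it is 98.0%, 99.7% and 99.8%. The division of reads between Hbb-bs and Hbb-bt is therefore an estimate, while the other members are read almost entirely from sequence of their own. Inbred mouse strains carry different haplotypes of this locus, and the reference carries the one whose adult genes are named Hbb-bs and Hbb-bt; how reads from another haplotype would divide between them was not tested.

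Among the adult genes, Hbb-bs ranked first of all nuclear protein-coding genes in both libraries. Hbb-bs, an adult beta chain gene, stood at 61175 TPM in replicate 1 and 69726 TPM in replicate 2, a mean of 65450 ± 6047 (SD, n = 2), from 546237 and 560343 expected counts. Hbb-bt, the second adult gene, stood at 501 TPM in replicate 1 and 703 TPM in replicate 2, a mean of 602 ± 142 (SD, n = 2), from 5372 and 6858 expected counts. Its rank among protein-coding genes was 215 in replicate 1 and 139 in replicate 2, so it was itself an abundant transcript. The log2 ratio of Hbb-bs to Hbb-bt was 6.93 in replicate 1 and 6.63 in replicate 2. By counts scaled by library total, without correction for length, it was 6.51. The Hbb-bs TPM rests on an effective length of 557 bases in replicate 1 and 550 in replicate 2. That length depends on the division among Hbb-bs transcripts, given below. Longer forms would give Hbb-bs a lower TPM, and lower ratios and shares with it. The posterior standard deviation of the Hbb-bt count, which the deposited tables give as the uncertainty of assignment, was 99.2 counts in replicate 1 and 126 in replicate 2, small beside the counts themselves.

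The embryonic genes were read at much lower levels, and unequally. Hbb-bh1 stood at 41.0 TPM in replicate 1 and 50.6 TPM in replicate 2, a mean of 45.8 ± 6.77 (SD, n = 2), from 381 and 428 expected counts. Hbb-y stood at 1.10 TPM in replicate 1 and 1.64 TPM in replicate 2, from 11 and 15 expected counts. Hbb-y therefore lay just above the detection threshold, and its exact 95% binomial (Clopper-Pearson) interval ran from 0.269 to 0.964 CPM (counts scaled by library total) in replicate 1 and from 0.452 to 1.33 in replicate 2; all such intervals and floors cover counting error only. The log2 ratio of Hbb-bh1 to Hbb-y was 5.22 in replicate 1 and 4.95 in replicate 2, a mean of 5.08 ± 0.19 (SD, n = 2), or 33.9-fold. The same ratio of Hbb-bt to Hbb-bh1 was 3.61 in replicate 1 and 3.80 in replicate 2, which places the lesser adult gene 13.0-fold above the leading embryonic one.

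Hbb-bh2, a beta-like gene between Hbb-bh1 and the adult pair, had 0 expected counts in both libraries. At the depth of these libraries 3 counts of this gene would give 0.457 TPM in replicate 1 and 0.502 TPM in replicate 2. This level was chosen as a floor and is not the upper limit for a count of 0. The exact 95% binomial interval of Hbb-bh2 reached 0.181 CPM in replicate 1 and 0.199 CPM in replicate 2, above the level of 3 counts. Against the level of 3 counts its neighbour Hbb-bh1 was 89.7-fold higher in replicate 1 and 100.8-fold higher in replicate 2. Hbb-y, by its point values, was 2.41-fold above the same level in replicate 1 and 3.27-fold in replicate 2. These folds leave out the counting error of Hbb-y, which had 11 and 15 counts. Whether Hbb-y exceeded Hbb-bh2 beyond counting error was not tested.

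As shares of the summed TPM of the 5 beta-like genes, Hbb-bs held 99.1% in replicate 1 and 98.9% in replicate 2. Hbb-bt held 0.812% and 0.997%. Hbb-bh1 held 0.0664% and 0.0718%, and Hbb-y 0.00178% and 0.00233%. The beta-like RNA of these cells was thus read almost wholly as Hbb-bs, and the share of each of the other 3 detected genes was higher in replicate 2. Together the 5 genes took 6.17% of all TPM in replicate 1 and 7.05% in replicate 2.

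The other genes in and around the cluster had few counts or none. Of 18 other annotated genes within 100 kb of its outermost members, 16 are in the gene tables, and 10 of those had 0 counts in both libraries. The surrounding genes are mostly olfactory receptor genes, which are active in sensory neurons, and 10 of the 12 olfactory receptor genes in the tables had 0 counts. Olfr67 had 1 count in replicate 1 and Olfr632 had 1 in replicate 2. Among pseudogenes, Hbb-bh3 had 3 counts in each library, Hbb-bh0 and Gm15115 had 1 each in replicate 1 and 0 in replicate 2, and Dnajc19-ps had 28.3 and 13. The pseudogene Hbb-bh3 thus lay at the level of 3 counts, and Hbb-bh0, which sits between Hbb-bh1 and Hbb-y, below it.

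Of the 8 members in the RefSeq promoter table (GRCm38.p6), 4 are beta-like genes, and 3 of these hold classic promoter boxes in the 120 bases before the RefSeq start. Hbb-bh1 is not among the 8. The CACCC box is the element bound by KLF1 in adult beta-globin genes, and the CCAAT box lies closer to the start. Hbb-bs has CACCC from -90 and CCAAT from -76, Hbb-bt has CACCC from -104 and from -89 and CCAAT from -75, and Hbb-y has CACCC from -111 and CCAAT from -83, all read in the direction of the gene. On the opposite strand Hbb-bt also has CCAAT from -80 and from -36. The other motifs searched, each on both strands, were the GATA-type words AGATAA and the related TGATAA, the box TATAAA and the word TGACC. Of the 4 beta-like genes only Hbb-bt holds TATAAA in that stretch, from -28, and none holds AGATAA or TGATAA there. Hbb-bh2 holds none of the 6 in that stretch. TGACC, the core of the motif bound by BCL11A, occurs in that stretch of Hbb-y from -94, -86 and -51 and of Hbb-bt from -13, on either strand, and not in that of Hbb-bs; the one of Hbb-y from -86 overlaps its CCAAT box. Such short words are common: among 32851 mouse promoters, 31.7% hold CACCC, 21.3% hold CCAAT and 18.9% hold TGACC in the same 120 bases, and the shares for AGATAA, then TGATAA and TATAAA, are 4.36%, 3.55% and 6.34%, so a match describes the letters only. The RefSeq starts of Hbb-bt and Hbb-y lie inside the first GENCODE exon.

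Of the 4 regulators, Bcl11a had the highest TPM. Bcl11a (chr11:24078056-24174123, plus strand) stood at 85.0 TPM in replicate 1 and 78.9 TPM in replicate 2, a mean of 82.0 ± 4.28 (SD, n = 2), from 3168 and 2700 expected counts. Zbtb7a (chr10:81135220-81152995, plus strand) stood at 39.4 TPM in replicate 1 and 38.7 TPM in replicate 2, a mean of 39.04 ± 0.523 (SD, n = 2), from 3669 and 3331 expected counts. Both repressors thus lay well above the median of 20.7 TPM over the 8840 detected protein-coding genes. Per length, the log2 ratio of Bcl11a to Zbtb7a was 1.11 in replicate 1 and 1.03 in replicate 2. Zbtb7a drew more reads than Bcl11a, and by CPM, without correction for length, that log2 ratio was -0.26. The Bcl11a TPM rests on an effective length of 2323 bases in replicate 1 and 2340 in replicate 2. That length depends on the division among Bcl11a transcripts, given below, and longer forms would give a lower TPM. Whether Bcl11a would then stay above Zbtb7a was not tested. Bcl11a exceeded the embryonic Hbb-bh1 by 1.05 on the log2 scale of TPM in replicate 1 and 0.64 in replicate 2.

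Sox6 and Lin28b were both detected, at low levels. Sox6 (chr7:115470872-116038796, minus strand), which lies on the same chromosome as the globin cluster, stood at 1.77 TPM in replicate 1 and 1.81 TPM in replicate 2, from 109 and 107 expected counts. These TPM values rest on an effective length of 3833 bases in replicate 1 and 4052 in replicate 2. That length depends on the division among Sox6 transcripts, given below, and longer forms would give a lower TPM. If all its counts belonged to the listed form of 8079 bases, Sox6 would lie under 1 TPM in both libraries. Lin28b (chr10:45376620-45486395, minus strand) stood at 2.01 TPM in replicate 1 and 2.08 TPM in replicate 2, from 173 and 163 expected counts. The TPM values of the 2 genes do not overlap, but the log2 ratio of Lin28b to Sox6 was only 0.19 ± 0.01 (SD, n = 2). By CPM, without correction for length, it was 0.64. By TPM, Zbtb7a exceeded Lin28b 19.1-fold and Bcl11a exceeded Sox6 45.8-fold, so the 4 regulators fell into an abundant and a scarce pair. The log2 ratio of Bcl11a to Sox6 was 5.52 by TPM and 4.76 by CPM.

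The deposited transcript tables divide Bcl11a among 6 annotated transcripts, 5 of them with counts. The gene is known for protein forms of different length that share an N-terminal part and differ in how many zinc fingers follow; the extra-long form is the one tied to globin silencing in erythroid cells. In GENCODE M21 the forms part at the fourth exon: Bcl11a-204 leaves it early and encodes 191 codons, Bcl11a-201 leaves it late and encodes 773, and Bcl11a-202 reads on through it and encodes 835. The bases at the early and the late exit are shown as 2 pairs, because the forms part there. Bcl11a-203 shares the early exit of Bcl11a-204, and Bcl11a-201 reads past it as Bcl11a-202 does. Bcl11a-204 also has a first exon of its own. Within a pair the lower-case bases are shared, and the capitals are those of the form that leaves the exon and of the form that reads on (chromosome 11, GRCm38).
Early exit, Bcl11a-204 leaves: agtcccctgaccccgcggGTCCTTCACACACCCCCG
Early exit, Bcl11a-202 reads on: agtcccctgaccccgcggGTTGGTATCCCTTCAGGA
Late exit, Bcl11a-201 leaves: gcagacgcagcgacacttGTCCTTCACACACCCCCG
Late exit, Bcl11a-202 reads on: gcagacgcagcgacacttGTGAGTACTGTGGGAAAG
At the early exit Bcl11a-204 joins chr11:24163271-24163288 to chr11:24172699-24172716, where Bcl11a-202 continues to chr11:24163289-24163306. At the late exit Bcl11a-201 joins chr11:24164871-24164888 to the same chr11:24172699-24172716, where Bcl11a-202 continues to chr11:24164889-24164906. The capitals of Bcl11a-204 and Bcl11a-201 are therefore the same, since both enter 1 last exon, which the extra-long form does not use.

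By TPM, Bcl11a-204 held 60.3% of the gene in replicate 1 and 57.2% in replicate 2. Bcl11a-201 held 30.6% and 34.5%, and Bcl11a-202 held 7.49% and 6.83%. By expected counts, which are not divided by length, the leading form was Bcl11a-201 with 39.8% and 44.6%, Bcl11a-204 held 38.1% and 35.9%, and Bcl11a-202 held 19.2% and 17.4%. The extra-long transcript was thus the least of the 3 on either scale, at 6.37 TPM in replicate 1 and 5.39 TPM in replicate 2, from 608 and 469 expected counts. Of its 36-base windows 59.4% are in no other Bcl11a transcript, against 3.11% for Bcl11a-201 and 4.76% for Bcl11a-204, so the division between the last 2 rests on few positions. Bcl11a-203, another short form with 243 codons, had 0 counts in both libraries.

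**Figure D2:**
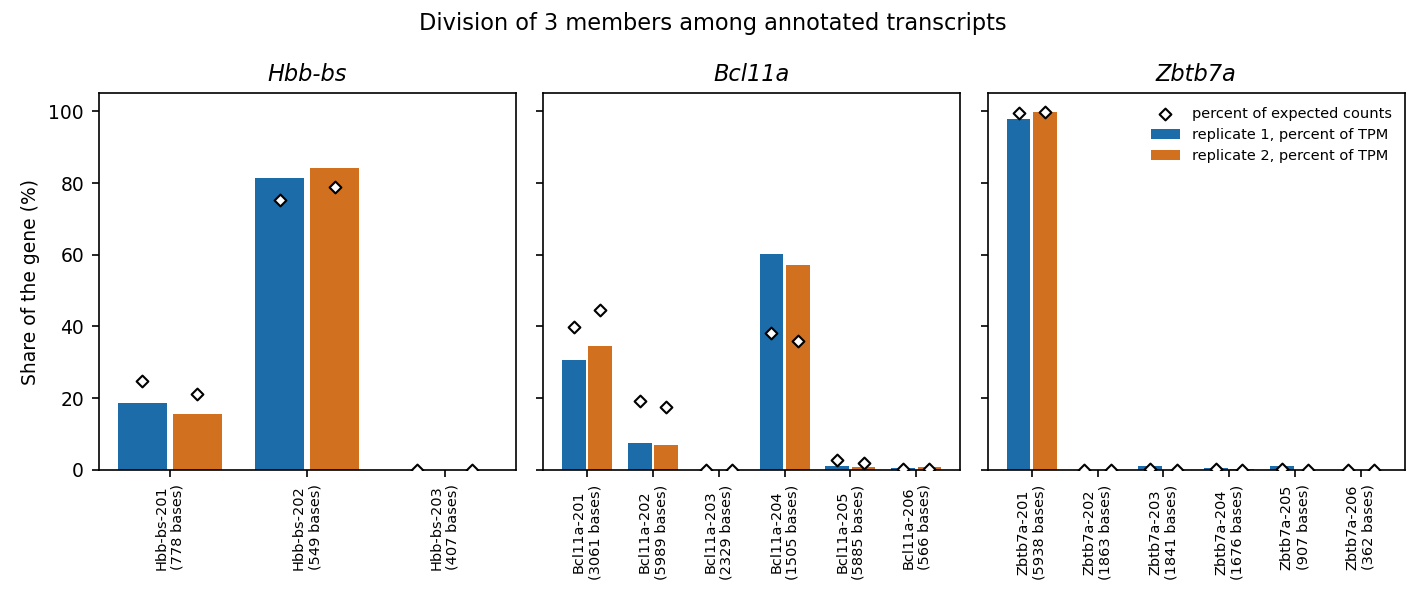
Share of Hbb-bs, Bcl11a and Zbtb7a held by each annotated transcript (%), as percent of the gene's TPM (bars, 1 per library) and as percent of its expected counts (diamonds); transcript lengths are those of the deposited tables. Bcl11a-204 leads by TPM at 60.3% and 57.2% and falls behind Bcl11a-201 by counts, while Hbb-bs-202 leads Hbb-bs and Zbtb7a-201 leads Zbtb7a on both scales.

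Most Hbb-bs reads were assigned to a model that the annotation does not call coding. Hbb-bs-202, classed as a retained intron in GENCODE M21, held 81.4% of the gene's TPM in replicate 1 and 84.3% in replicate 2, and 75.2% and 78.8% of its expected counts. The coding transcript Hbb-bs-201 held 18.6% and 15.7% of TPM, and Hbb-bs-203 21.7 and 11.2 expected counts. The retained part is the end of the first intron, of which 55 bases precede the second exon in Hbb-bs-202. The entry into that exon is shown for both models (minus strand of chromosome 7, GRCm38). Capitals are the last bases of the intron or of the first exon, which agree at some positions. Lower case is the shared second exon.
Hbb-bs-202, intron into exon: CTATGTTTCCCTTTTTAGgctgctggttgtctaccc
Hbb-bs-201, spliced exons: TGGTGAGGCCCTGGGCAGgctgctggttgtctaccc
In GENCODE M21, 17.2% of the 36-base windows of Hbb-bs-202 and 39.6% of those of Hbb-bs-201 are in no other Hbb-bs transcript. The deposited tables list these models at 549 and 778 bases, and GENCODE M21 lists them at 344 and 628, so the models behind the shares differ from those shown, and the share of RNA that keeps the intron was not tested.

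Zbtb7a was read almost wholly as Zbtb7a-201, the longest of its 6 listed transcripts, with 97.8% of TPM in replicate 1 and 99.8% in replicate 2. For Sox6, which has 5 listed transcripts, the one of 2825 bases held 80.3% of TPM in replicate 1 and 76.0% in replicate 2, and 58.5% and 52.3% of expected counts. The one of 8079 bases held 11.3% and 24.0% of TPM, and 23.6% and 47.7% of expected counts. Among the 5, in their GENCODE M21 sequences, 2.76% of the 36-base windows of the former and 0.845% of those of the latter are in no other, so this split of 109 and 107 counts rests on few positions. Hbb-bt, Hbb-bh1, Hbb-bh2, Hbb-y and Lin28b have 1 listed transcript each.

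Between the libraries, all 4 detected beta-like genes had the higher value in replicate 2, and the 4 regulators lay closer to equality. By the scaling named next, the median over 9353 genes with a mean of at least 50 counts was -0.0045 on the log2 scale. The fold of replicate 2 over replicate 1, from counts scaled by edgeR's TMM factors, compares these 2 libraries and no conditions. It was 1.13 for Hbb-bs (exact 95% counting interval 1.129 to 1.138), 1.41 for Hbb-bt (1.36 to 1.46) and 1.24 for Hbb-bh1 (1.08 to 1.43). For Hbb-y it was 1.51 with an interval of 0.647 to 3.63, which spans equality, so its libraries cannot be told apart at this depth. In whole-culture RNA, more cells of a kind and more RNA per cell cannot be told apart.

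Bcl11a stood at 0.942-fold in replicate 2 (interval 0.894 to 0.992). Zbtb7a stood at 1.003-fold (0.957 to 1.05), Sox6 at 1.08-fold (0.823 to 1.43) and Lin28b at 1.04-fold (0.835 to 1.30), each with an interval that spans equality. Of the 7 members with a mean of at least 50 counts, 0 passed 1.5-fold in either direction, beside 3.9% of 9353 genes with that mean. Hbb-bt, at 0.50 on the log2 scale, lay outside the central 95% of those genes, which ran from -0.62 to 0.38, and the other 6 lay inside it. The interval of Hbb-bt does not hold the uncertainty of its division from Hbb-bs.

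**Figure D3:**
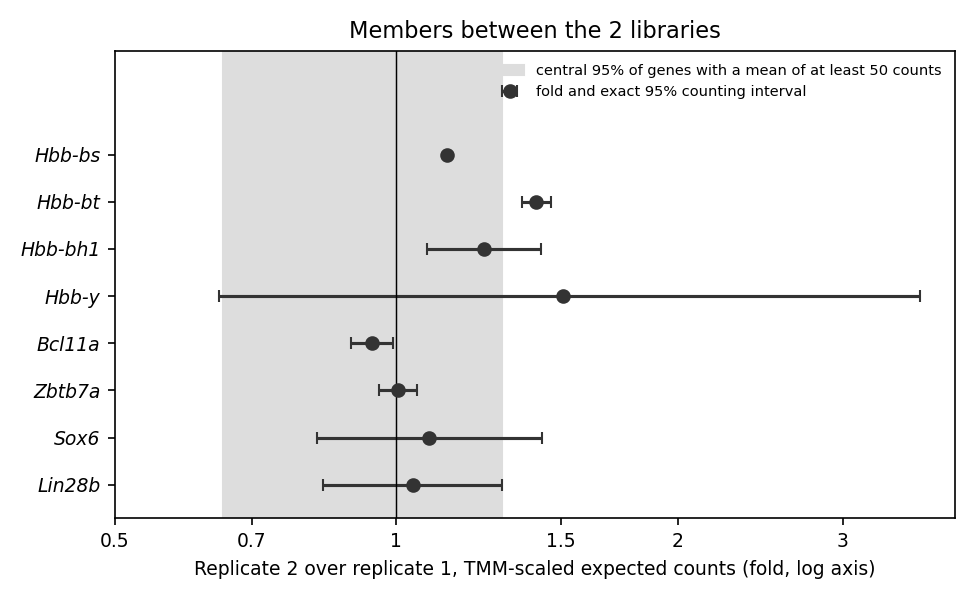
Fold of replicate 2 over replicate 1 (TMM-scaled expected counts, log axis) for the 8 genes with counts, with exact 95% counting intervals; the grey band is the central 95% of 9353 genes with a mean of at least 50 counts. Hbb-bt at 1.41 lies beyond the band, Hbb-y at 1.51 has an interval that crosses 1, and the 4 regulators lie inside the band.

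BCL11A and ZBTB7A repress with the NuRD complex, which joins a chromatin remodeller to histone deacetylases, and BCL11A also with LSD1-CoREST and NCoR. All 18 genes of a list of such partners and of factors tied to them were detected, with a median of 53.3 TPM, beside 41.2% detected and a median of 0.08 TPM over all nuclear protein-coding genes. The highest were Ncor1 at 213 ± 15.4 TPM (SD, n = 2), the methyl-CpG-binding proteins Mbd2 at 167 ± 6.37 and Mbd3 at 150 ± 11.9, and the histone-binding Rbbp4 at 140 ± 0.0919. Bcl11a lay above that median and Zbtb7a below it.

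Of 26 other regulators of beta-like globin genes, 23 were detected, with a median of 50.5 TPM. Gata1, the master erythroid factor, led at 2947 ± 330 TPM (SD, n = 2); reads from the endogenous locus and from the introduced fusion were not separated here. Its cofactor Zfpm1 stood at 897 ± 67.7 TPM, Klf1, which activates the adult gene and is known to raise Bcl11a and Zbtb7a, at 412 ± 1.62 TPM, and Nfe2, which binds the locus control region, at 333 ± 18.6 TPM. Nfia stood at 0.09 TPM in replicate 1 and 0.35 in replicate 2, and Ldb2 and Nr2f2 had 0 counts.

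Around Lin28b, 12 of 15 genes of the LIN28 and let-7 pathway were detected, with a median of 16.9 TPM. The highest were Drosha, which cuts primary microRNAs, at 139 ± 9.57 TPM (SD, n = 2), Tut4, which adds uridines to let-7 precursors held by LIN28 proteins, at 62.5 ± 12.7, Ago2, the microRNA effector, at 46.8 ± 2.98, and Hmga1 at 41.5 ± 2.25. Lin28a, the paralogue of Lin28b, had 0 counts in both libraries. Hmga2, a classic let-7 target, stood at 0.25 and 0.12 TPM and Igf2bp2 at 0 and 0.02, both under the threshold. Mature let-7 is not captured by poly(A) libraries.

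The paralogues of the 4 regulators were mostly not detected. Of 8 paralogues, 2 reached 1 TPM in both libraries, with a median of 0.01 TPM over the list. Zbtb7b, which is best known in T cells, stood at 10.97 ± 0.184 TPM (SD, n = 2) and Sox12 at 1.16 ± 0.12 TPM. Bcl11b, the T-cell counterpart of Bcl11a, had 0 counts in replicate 1 and 1 in replicate 2. Sox5 and Sox13, the other SoxD genes beside Sox6, had 1 count in each library and 1 and 0 counts, and Zbtb7c had 0. By the deposited TPM, each of the 4 regulators stood above all of its listed paralogues in both libraries, for Sox6 with the limit on length given above.

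**Figure D4:**
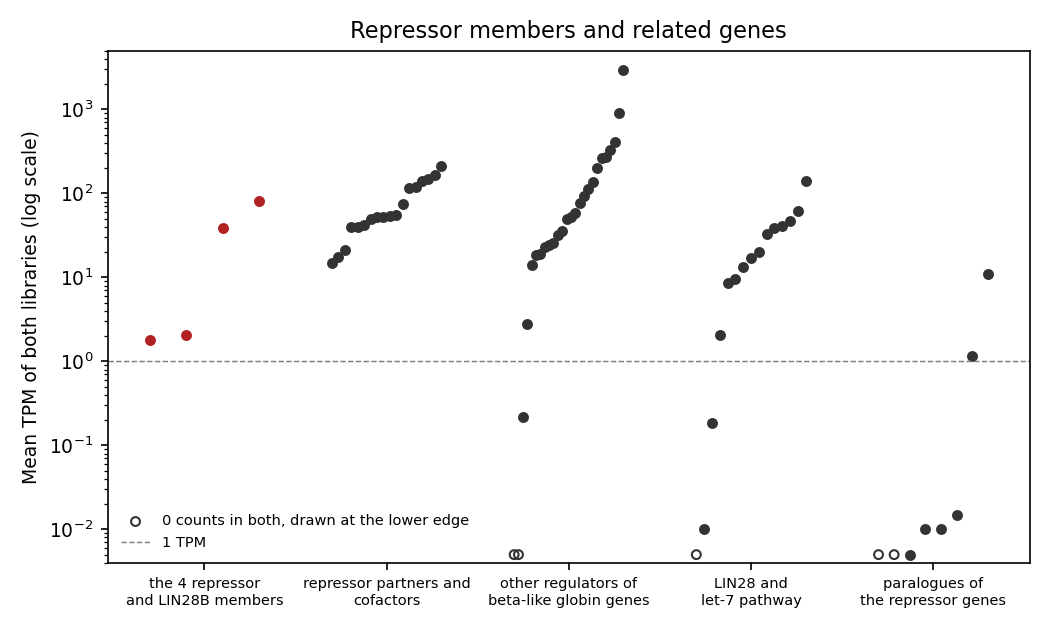
Mean TPM of both libraries (log axis) for the 4 regulators (red) and for the genes of 4 related lists (black, ordered by level within a list); open circles at the lower edge had 0 counts in both libraries and the dashed line is 1 TPM. All 18 repressor partners lie above the line, and 2 of 8 paralogues do.

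The labelled cell type was checked against markers. All 8 erythroid markers were detected, with summed levels of 2502 TPM in replicate 1 and 2513 TPM in replicate 2. Bcl11a is also a gene of B cells and plasmacytoid dendritic cells. Of 8 B cell markers 0 were detected, with sums of 0.5 and 0.46 TPM, and the defining genes Ms4a1 and Pax5 had 0 counts. By the deposited posterior mean TPM, which lies above 0 also for genes without counts, 2 of the 8 passed 1 TPM: Pax5 at 1.78 and 1.94, with 0 counts in both libraries, and Cd22 at 1.37 and 1.55, with 0 counts in replicate 1 and 1 in replicate 2. Of 7 plasmacytoid dendritic cell markers 2 were detected, Tcf4 at 17.1 ± 3.87 TPM (SD, n = 2) and Bst2 at 5.22 ± 0.728 TPM, and Siglech and Irf8 had 0 counts. Detected markers numbered 5 of 8 for megakaryocytes (sums of 117 and 126 TPM), 1 of 7 for mast cells (Kit, 12.3 TPM) and 1 of 8 for macrophages and granulocytes (Cd68, 3.14 TPM), or 2 of 8 by posterior mean TPM, with Itgam at 1.05 and 1.09.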

How the data were processed

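Poly(A) RNA of 2 induced G1E-ER4 libraries was read from single ends. The authors deposited gene and transcript tables on mm10 with GENCODE M4, per the file headers (aligner, counter and use of strand: not given in the sources used here). The deposited expected counts are estimated counts that need not be whole, with a posterior standard deviation each. The deposited TPM and posterior mean TPM are corrected for length and sum to the same total in each library. The deposited percent columns give each transcript's share of its gene. From these, shares, log2 ratios, means and SDs (n = 2) were computed with Python 3.11.15. Expected counts were rounded and scaled with TMM (edgeR 4.0.16, R 4.3.3), with DESeq2 1.42.0 size factors as an alternative; no gene was tested, since there is 1 group. Exact 95% intervals (Clopper-Pearson) cover counting error only, and the floor of a 0 is 3 counts. Rows without an Ensembl identifier held 0.0119% of counts in replicate 1 and 0.0110% in replicate 2. Names, coordinates, coding sequences and windows of 36 bases came from GENCODE M21 (GRCm38), and promoters from RefSeq.

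Named were all 9 members, up to 4 list genes with the highest mean TPM and up to 4 under 1 TPM per list, and neighbours with counts. The members and lists were chosen with earlier results of these data known. The labels call the libraries biological replicates but do not say whether they are separate cultures, so SDs may be partly technical.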

Additional observations from a re-analysis of the deposited data

How the results depend on the processing

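The order of the 9 genes did not change by posterior mean TPM, by expected counts per full length or with either library left out; the number of neighbouring pairs without overlap was 8, and 7 by counts per full length. The log2 ratio of adult to embryonic beta-like genes ranged from 10.40 to 10.52 with 1 library left out. The ratio of Bcl11a to Zbtb7a turned to -0.26 on the log2 scale by CPM, which do not divide by length. The replicate log2 fold of Zbtb7a turned from 0.0048 to -0.0025 with library totals and -0.027 with TPM. The share of genes past the replicate fold was 3.9%, and became 9.08% at a mean of at least 10 counts, 36.7% with no minimum and 1.08% at 2-fold. Of the genes past it, 25.5% were higher in replicate 2, beside 36.8% at a mean of at least 10 counts and 46.3% with no minimum. Hbb-bs-202 held 77.0% by expected counts (81.4% to 84.3% by TPM with 1 library left out), and Bcl11a-204 held 37.0% (57.2% to 60.3%). Of the values of single genes, ratios and lists under an alternative, 146 moved by less than the spread between libraries (for counts, by less than 1.5 times), 32 moved by more and 3 changed sign, as given above. For a level, ratio or transcript share, leaving out 1 of 2 libraries moves the mean by less than the SD whatever the values. Such cases among the 146 were fixed in advance and say nothing about stability. Depth limits Hbb-y and Hbb-bh2. No paired analysis was possible because there is 1 group. The planned comparison of proteins was not run, and coding sequences were compared instead.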

Other observations

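The 4 detected alpha-like globin genes, which supply the partner chains of the beta-like proteins, were also higher in replicate 2 by TPM. Hba-a2 stood at 35824 TPM in replicate 1 and 42224 TPM in replicate 2. Hba-a1 stood at 8006 and 9667 TPM, with the 2 adult alpha genes being near-identical copies. The embryonic Hba-x stood at 21.0 and 24.3 TPM and Hbq1b at 22.6 and 31.5 TPM. The neuronal and muscle relatives were low, with Ngb at 0.08 and 0.04 TPM and Mb at 0 counts. Erythroid markers did not all follow: Slc4a1, the band 3 anion exchanger, stood at 578 TPM in replicate 1 and 622 TPM in replicate 2, Alas2, the erythroid haem synthesis enzyme, at 907 and 929 TPM, and Tfrc, the transferrin receptor, at 219 and 186 TPM.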
